A study of Mus musculus with 71 samples.

Results

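The libraries described here are 8 of the 71 samples of the series: bulk RNA-seq of γδ intraepithelial lymphocytes (IELs) from wild-type (WT) mice, 4 libraries from the jejunum and 4 from the duodenum. They are defined by their labels, WT genotype and 1 of these 2 segments. Earlier results of these data were known when the groups were chosen. The mice were cohoused female WT C57BL/6 littermates of Btnl2-KO mice, 10 weeks old by the labels. The small intestine was cut into 3 equal parts, CD45+ TCRβ- TCRγδ+ cells were sorted from the IEL fraction of a density gradient, and each library came from a pool of a pair of mice; whether a duodenal and a jejunal pool shared mice is not given in the sources used here. Set beside them are 7 Btnl2-KO γδ IEL libraries of the same age, sort and pooling (3 duodenal, 4 jejunal; a LacZ and selection cassette at the start codon gives a null allele), 6 WT libraries of the unsorted intestinal epithelial cell (IEC) fraction from 7-week-old mice (3 per segment), and 2 WT single-cell libraries (1 per segment), for which a share of the same sorted γδ IELs was pooled by the study's methods. The labels give 8 to 10 weeks as the age for the single-cell libraries, and the methods give another age for the γδ IEL mice than the labels.

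γδ IELs sit between the enterocytes of the gut lining, express the integrin CD103 and granzymes, and respond to stressed or infected epithelium. The epithelium itself changes along the gut. The duodenum takes up iron and calcium and is rich in detoxifying enzymes, and the ileal end specialises in bile acid uptake. The jejunum lies between them, so the contrast of jejunum with duodenum asks how γδ IELs differ along the proximal gut.

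The 8 libraries held 13444958 to 30029485 expected counts. Levels are given as CPM, each library's counts scaled to a common total after TMM normalization, per library in the order 1 to 4. The sorted cell type was checked on its markers. Cd3e, a subunit of the T cell receptor complex, lay between 1004 and 1985 CPM, and Cd8a, which γδ IELs carry as a homodimer, between 1731 and 2589 CPM. Genes of the TCR chains were not analysed here. Of markers of other cells, Epcam, an epithelial adhesion molecule, lay between 280 and 677 CPM, while Csf1r of macrophages was below 1 CPM in each library. In the single-cell libraries Epcam was detected in 40.1% of duodenal and 35.6% of jejunal cells. Whether its bulk level came from other cells alone was not tested. Of 12629 genes tested, 1330 were higher in the jejunum (10.5%) and 1607 lower (12.7%). These calls were made at an FDR below 0.05 and a fold change above 1.5 by edgeR's quasi-likelihood test. By the same test 5880 genes had an unadjusted p under 0.05. Counts of called list members below are to be read beside the shares of 10.5% and 12.7%.

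The direction of these calls moved with transcript length. Among the shortest 1236 genes, 637 were called lower and 14 higher, and their median log2 fold change was -0.74. Among genes of 3531 to 4179 bases, 58 were called lower and 271 higher, with a median of 0.30. The trend turned back in the longest class, of 6491 bases and more, where 117 were called lower and 115 higher, with a median of -0.01. A slope on log2 transcript length was taken for each library after each gene's mean over the compared libraries was subtracted. The slopes were -0.18, -0.12, -0.03 and -0.11 in the duodenum and 0.13, 0.04, 0.14 and 0.12 in the jejunum. Slopes centred in this way balance around 0, so only their difference between segments is read. The slope test was not among the planned comparisons. All 4 jejunal slopes were above the duodenal ones (exact permutation test, two-sided p = 0.0286, the smallest that 4 against 4 allows). In the single-cell libraries the median log2 ratio of the 10 length classes stayed between -0.09 and -0.00. In WT IECs the class medians ran from -0.23 in the shortest class to 0.30 in the longest. In Btnl2-KO γδ IELs they were -0.09 in the shortest class, 0.12 at the highest and -0.14 in the longest. With the length trend removed from each library, a fit chosen after seeing the data, 659 of 12629 genes were higher and 1038 lower. Of these, 594 and 804 were called in the same direction without the removal. List counts with the trend removed are to be read beside these totals, not beside the shares given above. Whether RNA integrity or library preparation moved with the segment was not tested, and the length-removed value is given beside groups below whose calls or median it moved.

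**Figure D1:**
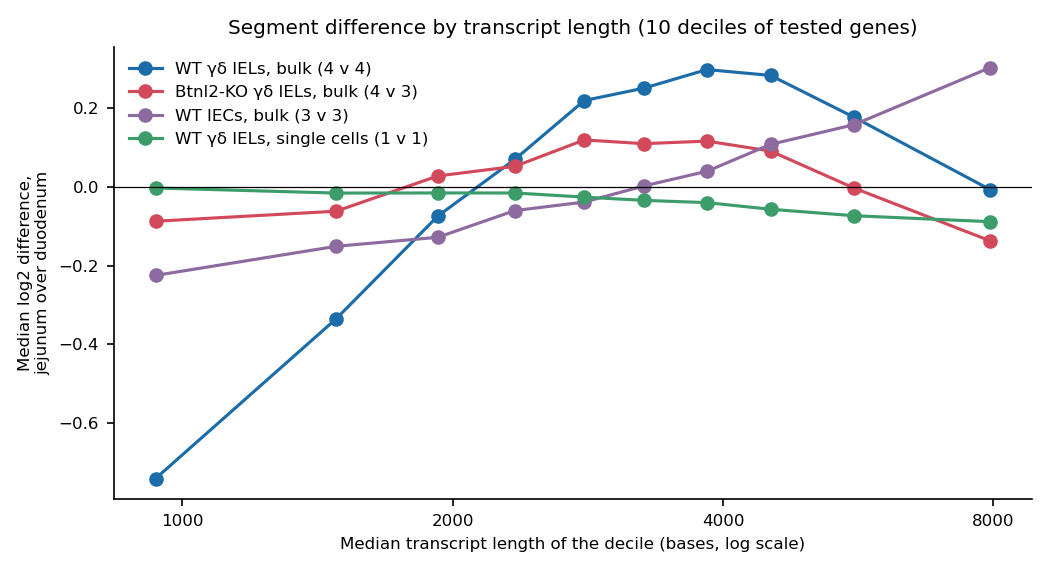
Median log2 difference, jejunum over duodenum (vertical axis), of 10 classes of genes ordered by transcript length (horizontal axis, bases, log scale) in WT γδ IELs, Btnl2-KO γδ IELs, WT IECs and single cells. The WT bulk medians run from -0.74 in the shortest class up to 0.30 and back to -0.01 in the longest, and the single-cell medians stay near 0.

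Genes of duodenal epithelium were among those that fell. Of 10 tested genes of proximal epithelium, 7 were lower in the jejunum and none was higher. All 7 had the 4 jejunal libraries below the 4 duodenal ones. Over all genes tested, 17.3% had the jejunal libraries below in this way and 17.4% had them above. The median log2 fold change was -2.56, against 0.01 over all genes tested. The summed level of this list was 987, 537, 302 and 409 CPM in the duodenum and 125, 163, 140 and 160 CPM in the jejunum. Since the cells were sorted as γδ T cells, epithelial markers are given with them. The summed level of 12 pan-epithelial genes overlapped between segments, at 3494 to 5661 CPM in the duodenum and 2103 to 5668 CPM in the jejunum, and with that level as a covariate 7 of the 10 proximal genes were called lower and 1 higher. The pan-epithelial genes had a median log2 fold change of -0.50, and of them Cdh1 was called higher (0.70) and Phgr1 lower (-1.54). Whether these genes came from epithelial cells alone was not tested, which also limits the covariate. In bulk libraries, fewer cells of a type and less RNA per cell cannot be told apart.

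Adh1, an alcohol dehydrogenase that also oxidises retinol, measured 325, 302, 172 and 244 CPM in the duodenum and 54.8, 58.5, 73.8 and 63.6 CPM in the jejunum. It was 4.16-fold lower (log2 fold change -2.06 ± 0.19 SE, edgeR FDR = 0.00206). S100g, the calcium-binding calbindin of duodenal enterocytes, measured 287, 33.6, 13.1 and 23.2 CPM in the duodenum and 0.211, 0.430, 0.578 and 0.624 CPM in the jejunum, where no library came near the lowest duodenal one. Slc40a1, the iron exporter ferroportin, fell from 5.62 to 18.1 CPM to 1.53 to 3.26 CPM. Pdx1, a transcription factor of duodenum and pancreas, was at 0.938 to 2.59 CPM in the duodenum and at 0 counts in all 4 jejunal libraries, at least 14.3-fold lower against a floor of 3 counts per library. Onecut2, a transcription factor, fell by 3.42 on the log2 scale. Gata4, which the small intestine expresses through the jejunum, differed by 0.31 ± 0.38 and the iron importer gene Slc11a2 by 0.36 ± 0.14; neither passed the test. Without duodenal library 1, S100g stood at -5.63 on the log2 scale, Gsta1 at -3.28 and Sct at -1.96, all still called.

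The rule for the largest decreases named further genes, most of them outside this list. Otop3, a proton channel gene, measured 15.1, 8.86, 3.90 and 4.54 CPM in the duodenum and 0.0446 to 0.105 CPM in the jejunum. Akp3, an alkaline phosphatase of duodenal enterocytes, fell from 10.2 to 50.4 CPM to 0.0482 to 0.738 CPM. Reg1, a secreted lectin-like protein, measured 841, 541, 209 and 362 CPM in the duodenum and 1.63, 12.7, 18.9 and 5.35 CPM in the jejunum. Aqp8, a water channel, was at 1.63 to 4.38 CPM in the duodenum and at 0 counts in each jejunal library, at least 22.4-fold lower, and Slc16a9, a transporter gene, at least 7.23-fold lower by the same floor. Others by rank of fitted fold change included Cbr3, Ghrl, Sult6b2, Adh4, Gkn3, Gsta1 and Gm3776, with log2 fold changes from -5.49 to -3.93; of these Gsta1 is in the proximal list. Without duodenal library 1, Akp3 stood at -5.13 and Cbr3 at -4.36, without jejunal library 1 Cbr3 at -6.10, without jejunal library 2 Akp3 at -6.53, and without jejunal library 4 Gkn3 at -4.62. Gsta1 and Gm3776 are near-identical glutathione transferase sequences, so reads may be split between them.

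Detoxification and fat handling followed. Of 21 genes of xenobiotic metabolism, 2 of which (Adh1 and Gsta1) are also in the proximal list, 13 were lower and none higher (median -1.57, and -1.46 with the length trend removed). Among them were Gsta4 (log2 fold change -2.96 ± 0.40), Gstm3 (-2.19 ± 0.32), the cytochrome P450 gene Cyp2b10 (-2.24 ± 0.53), the retinal dehydrogenase gene Aldh1a1 (-2.14 ± 0.36) and the carboxylesterase gene Ces2c (-1.80 ± 0.33). Without duodenal library 1, Cyp2b10 stood at -1.59. Of 20 enterocyte genes 7 were lower and none higher (median -0.47). With the length trend removed 4 were called lower (median -0.59). The pan-epithelial genes had medians of -0.50 and -0.22 in the same fits. The summed enterocyte level overlapped between segments, at 1838 to 7260 CPM in the duodenum and 732 to 2160 CPM in the jejunum. Fabp1, a fatty acid-binding protein of enterocytes, measured 1334, 698, 217 and 437 CPM in the duodenum and 29.5, 83.2, 36.0 and 63.8 CPM in the jejunum, 12.6-fold lower (edgeR FDR = 0.00418). Rbp2, the cellular retinol-binding protein of enterocytes, fell by 3.26 ± 0.47 and Apoa4, an apolipoprotein of chylomicrons, by 2.92 ± 0.63. Apoa1, the main protein of high-density lipoprotein, fell by 1.57 ± 0.56, but lost its call when 1 of 6 of the 8 libraries was left out, with log2 fold changes from -1.92 to -0.93. With the pan-epithelial level as a covariate 4 enterocyte genes were called lower and 1 higher, with a list median of -0.17.

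The promoters of Fabp1, Rbp2 and Adh1 are shown because these are abundant genes that fell together. They are RefSeq windows on GRCm38.p6, from 250 bases before to 50 after the start of transcription: Fabp1 at chr6:71199629-71199928, Rbp2 at chr9:98490287-98490586 and Adh1 at chr3:138277335-138277634, each on the plus strand. Capitals mark matches, on either strand, to 4 short words. The word bound by GATA factors was searched as AGATAA. The word for CDX factors was TTTATG. The TATA box was searched as TATAAA. The word CAAAGT makes up the first bases of the HNF4 motif, which is CAAAGTCCA.
Fabp1: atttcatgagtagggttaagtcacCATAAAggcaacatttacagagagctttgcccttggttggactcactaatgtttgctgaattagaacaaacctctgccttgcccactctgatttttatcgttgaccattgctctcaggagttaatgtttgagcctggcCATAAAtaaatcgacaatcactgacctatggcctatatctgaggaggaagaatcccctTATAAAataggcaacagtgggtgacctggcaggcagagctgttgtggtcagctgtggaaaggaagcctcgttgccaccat
Rbp2: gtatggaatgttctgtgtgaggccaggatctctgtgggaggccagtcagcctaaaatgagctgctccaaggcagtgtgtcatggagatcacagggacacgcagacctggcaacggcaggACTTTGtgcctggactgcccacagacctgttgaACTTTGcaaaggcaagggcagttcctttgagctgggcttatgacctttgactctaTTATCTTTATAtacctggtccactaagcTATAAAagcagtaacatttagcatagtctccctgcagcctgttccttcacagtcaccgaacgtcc
Adh1: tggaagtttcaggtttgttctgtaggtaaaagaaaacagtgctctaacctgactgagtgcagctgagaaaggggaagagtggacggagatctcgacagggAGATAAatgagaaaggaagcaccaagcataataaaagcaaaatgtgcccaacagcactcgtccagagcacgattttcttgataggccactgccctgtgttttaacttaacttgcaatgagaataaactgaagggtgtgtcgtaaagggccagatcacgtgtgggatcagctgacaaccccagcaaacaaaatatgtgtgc
The Fabp1 window held 2 CDX matches and a TATA box, the Rbp2 window a GATA match, 2 CAAAGT matches and 2 TATAAA matches, 1 of which overlaps the GATA match by a base, and the Adh1 window a GATA match. None of the 3 held the full CAAAGTCCA or the HNF1 motif. Such short words are common: of 32851 RefSeq promoter windows, 11.2% held AGATAA, 14.4% CAAAGT, 11.9% TTTATG and 13.6% TATAAA, while 0.475% held CAAAGTCCA and 0.0609% the HNF1 motif.

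**Figure D2:**
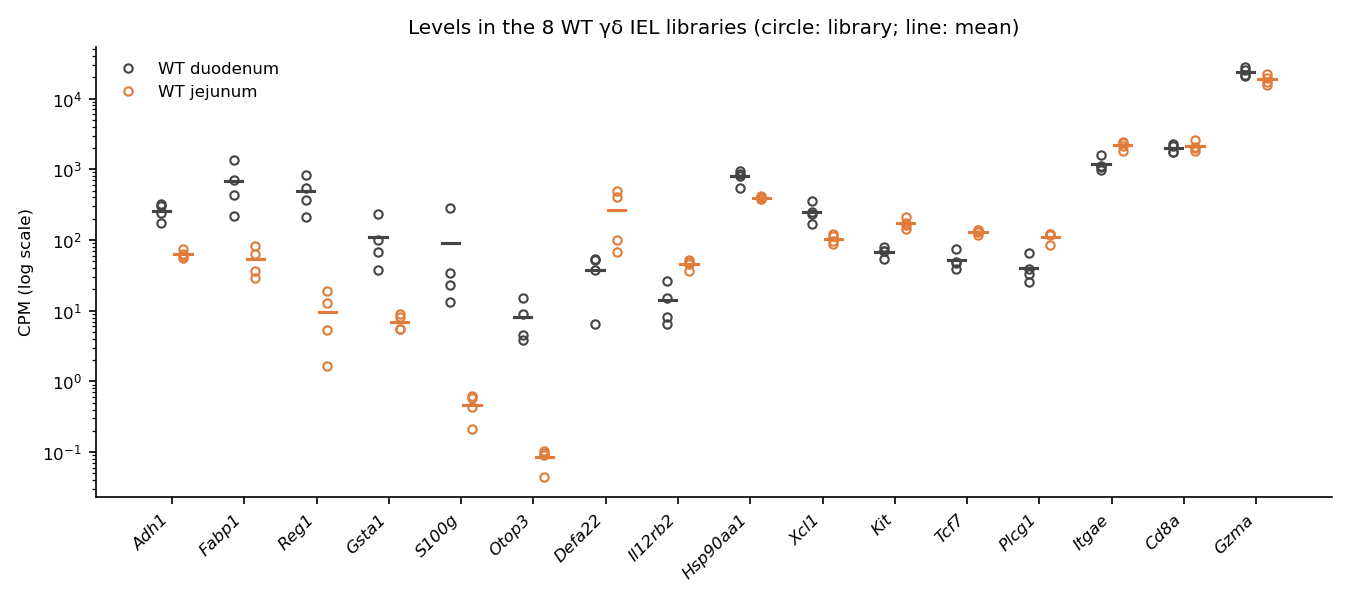
Level in CPM (vertical axis, log scale) of 16 genes in the 4 duodenal and 4 jejunal WT γδ IEL libraries, with circles for libraries and lines for means. For Reg1, the duodenal libraries lie at 209 to 841 CPM and the jejunal ones at 1.63 to 18.9, whereas Cd8a and Gzma overlap between segments.

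Of 9 tested enteroendocrine and tuft cell genes, 3 hormone genes were lower in the jejunum and none was higher; with the length trend removed 2 were called lower. Ghrl, which encodes ghrelin, measured 4.68, 15.3, 17.6 and 21.2 CPM in the duodenum and 0.0527, 0.553, 0.0482 and 0.535 CPM in the jejunum. Sct, which encodes secretin and is also in the proximal list, fell by 2.74 ± 0.61, and Cck, which encodes cholecystokinin, by 2.83 ± 0.76; Cck was no longer called without duodenal library 2. All 3 are known as products of proximal gut endocrine cells, and no such cell was selected by the sort. In the duodenal single-cell library 1 cell held 490 of the 493 UMIs of Chgb, a granule protein of endocrine cells, and the jejunal library held none.

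Fewer epithelial genes were higher in the jejunum. Of 9 tested genes of distal epithelium, 2 were higher (3 with the length trend removed). Fabp6, the ileal bile acid-binding protein, measured 0, 0.109, 0.0494 and 0.0826 CPM in the duodenum and 2.16, 2.06, 0.626 and 4.55 CPM in the jejunum. Osr2, a transcription factor, rose by 1.87 ± 0.43. Slc5a8, a transporter of short-chain fatty acids, was at 0 counts in all 4 duodenal libraries and at 0.580, 2.06, 1.35 and 1.74 CPM in the jejunum, at least 7.44-fold higher. Fam151a (log2 fold change 4.60 ± 0.99), Enpp7, an alkaline sphingomyelinase (3.90 ± 0.91), Slc34a2, a phosphate transporter (3.62 ± 0.76), Gsdmc3, a gasdermin (3.27 ± 0.67), and Duox2 (2.81 ± 0.73) and Nos2 (2.94 ± 0.76), which make hydrogen peroxide and nitric oxide, also rose, from levels of at most 1.78 CPM in any duodenal library. Single libraries moved these folds: without duodenal library 1, Fam151a stood at 5.92 and Enpp7 at 5.23, without duodenal library 3 Gsdmc3 at 3.92 and Duox2 at 3.40, without duodenal library 4 Nos2 at 3.62, and without jejunal library 2 Gsdmc3 at 2.65. The gene model Gm10052 and the gene ID 22135, which matched no symbol, were at 0 counts in the duodenum and were at least 76.8-fold and 28.1-fold higher. In IECs neither passed the test (0.47 ± 0.29 and 0.19 ± 0.37). B430306N03Rik and Pcdhgc4, the remaining genes by rank, rose from at most 0.346 CPM. Pcdhgc4 lost its call when any of 3 single libraries was left out (duodenal 2 or 4, or jejunal 1), and stood at 7.24 without duodenal library 3.

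α-Defensins, the antimicrobial peptides of Paneth cells, split within the family. Of 22 tested, 6 were higher and none lower, with a family median of 0.08. With the length trend removed 9 were called higher (median 1.03), and with the pan-epithelial covariate 9 (median 0.61). Defa22 measured 54.0, 51.7, 37.1 and 6.44 CPM in the duodenum and 66.9, 492, 99.1 and 400 CPM in the jejunum, 7.07-fold higher (edgeR FDR = 0.0134). Defa20 (2.89 ± 0.75), Defa21 (2.64 ± 0.66) and Defa33 (3.10 ± 0.66) rose with it, with the 4 jejunal libraries above the duodenal ones. Their sequences are near identical, so assignment between members is uncertain. The summed family overlapped between segments (5482 to 20141 CPM against 1866 to 17011 CPM), and none of 6 other Paneth cell genes was called, with Lyz1 (lysozyme) at 634 to 3386 CPM against 493 to 4892 CPM. In the jejunal single-cell library 1 of 3601 cells held 1506 of the 1572 UMIs of Defa22 and the duodenal library held 3 UMIs. The same contrast in IECs gave a log2 fold change of 3.69 ± 0.41 for Defa22 (edgeR FDR = 0.0165).

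The epithelial genes were next compared in the IEC fraction and in the Btnl2-KO γδ IELs, neither of which was used to choose the WT libraries. In IECs 21 genes were higher (0.168%) and 19 lower (0.152%) of 12505 tested by edgeR. These counts were unstable: DESeq2 called 182 and 147, and leaving out single libraries gave 0 to 37 and 0 to 36 by edgeR (0 higher without duodenal library 1 or jejunal library 3, 0 lower without jejunal library 3). The decreases of Reg1 (-3.08 ± 0.30, edgeR FDR = 0.00974), Sult6b2 (-4.70 ± 0.55, edgeR FDR = 0.0176), Adh4 (-2.95 ± 0.42) and Gkn3 (-2.26 ± 0.30) and the increases of Slc5a8 (2.74 ± 0.22), Fam151a (3.24 ± 0.43) and Nos2 (2.17 ± 0.25) passed the test there. None of the 10 proximal genes did, although Adh1 measured 125 to 306 CPM in duodenal and 15.2 to 42.8 CPM in jejunal IECs (-2.78 ± 0.46, edgeR FDR = 0.0588). Reg1 averaged 488 ± 271 CPM (SD, n = 4) in duodenal γδ IEL libraries and 145 ± 46.8 CPM (SD, n = 3) in duodenal IECs, scaled separately. In Btnl2-KO γδ IELs all 9 proximal, 21 xenobiotic and 20 enterocyte genes that could be compared had a log2 fold change below 0. The list medians were -1.99, -1.99 and -1.17, and none of these differences passed the test there. The 12 pan-epithelial genes also had a negative median in Btnl2-KO γδ IELs (-0.86), with 1 of the 12 above 0. The signs of the other lists are to be read beside that.

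**Figure D3:**
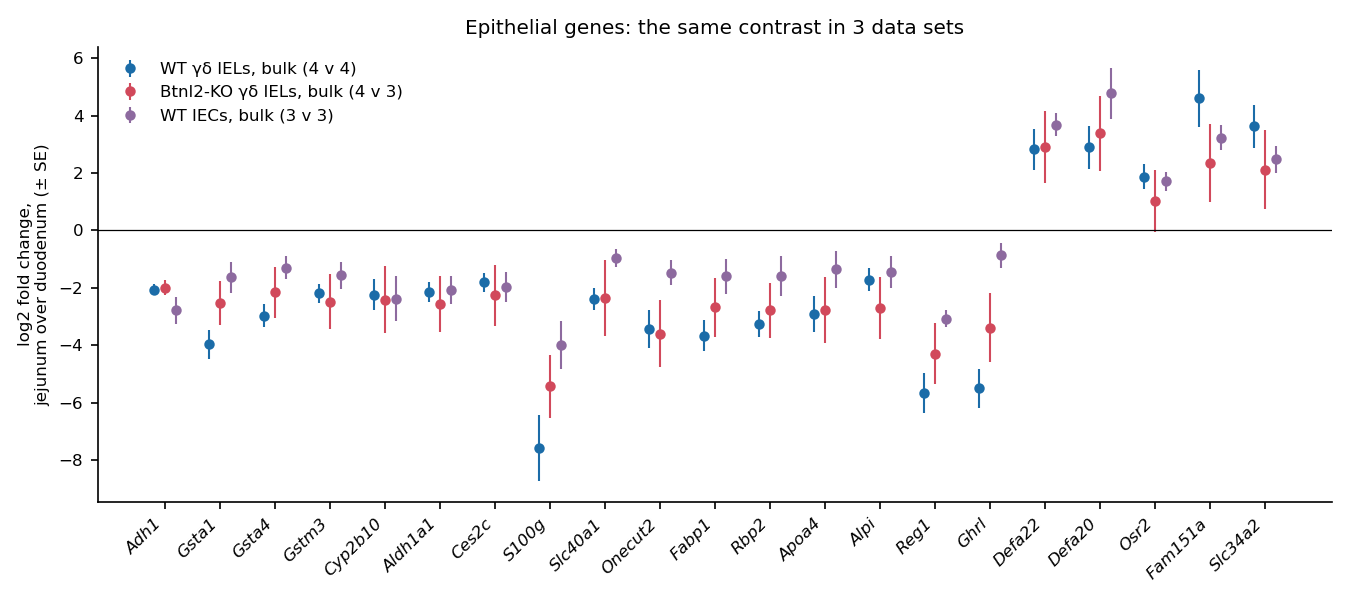
Log2 fold change, jejunum over duodenum (vertical axis, bars ± SE), of 21 epithelial genes in WT γδ IELs, Btnl2-KO γδ IELs and WT IECs. The decreases of genes such as Adh1 (-2.06, -1.99 and -2.78) and the increases of Defa22 (2.82, 2.92 and 3.69) have the same sign in each.

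Among genes of the γδ IELs themselves, 10 identity genes were tested. Of these, 1 was higher and 2 lower, beside 10.5% and 12.7% of all genes, with a median of 0.13; with the length trend removed 2 were called higher and none lower. Itgae, which encodes CD103, measured 982, 1079, 1576 and 1099 CPM in the duodenum and 2345, 1795, 2393 and 2167 CPM in the jejunum, 1.84-fold higher with no overlap. It is also counted in the homing and retention list below. Cd3d and Fcer1g, signalling subunits, were 1.56-fold and 1.51-fold lower. Each was lost when single libraries were left out, and with the length trend removed Cd3d was at -0.38 and Fcer1g at 0.35, neither called. Cd8a differed by 0.09 ± 0.15 and Ptprc, which encodes CD45, by 0.29 ± 0.13; neither passed the test.

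Of 20 tested genes of T cell receptor signalling, 8 rose and none fell, and the median was 0.40 (0.35 with the length trend removed, where 5 were called). Plcg1, the phospholipase downstream of the receptor, measured 25.4, 38.8, 64.6 and 32.7 CPM in the duodenum and 119, 84.3, 122 and 120 CPM in the jejunum, 2.75-fold higher (edgeR FDR = 0.00422). Themis, a thymocyte selection adaptor, rose by 0.85 ± 0.15. The single-cell libraries gave a median log2 ratio of -0.03 over 18 of these genes. Plcg1 stood at 55.0 CPM (95% Poisson interval 51.9 to 58.2) in duodenal and 50.8 CPM (47.7 to 54.1) in jejunal single cells.

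Cytolytic genes were split between modest increases and no call. Of 15 tested, 3 rose: Prf1, which encodes perforin, by 0.75 ± 0.15, Tnfsf10, which encodes the death ligand TRAIL, by 0.66 ± 0.12, and Ctsc, the protease that activates granzymes, by 0.81 ± 0.20. The most abundant members did not pass the test. Gzma, granzyme A, measured 25457, 20712, 21323 and 27488 CPM in the duodenum and 19535, 15757, 22352 and 17027 CPM in the jejunum, which overlap, and Gzmb differed by 0.49 ± 0.21. Of 22 receptors and adaptors of natural killer type, 2 rose and 3 fell, beside 10.5% and 12.7% of all genes. Those that rose, the activating receptor gene Ncr1 (1.98 ± 0.69) and Klri2 (1.29 ± 0.41), were below 2 CPM in each library. The adaptor genes Hcst (-1.02 ± 0.19) and Tyrobp (-1.09 ± 0.30) fell, and with the length trend removed stood at 0.25 and 0.03, neither called.

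Of 13 tested cytokine and chemokine genes, 3 fell and none rose. Xcl1, a chemokine that attracts dendritic cells, measured 250, 230, 170 and 353 CPM in the duodenum and 97.2, 87.8, 112 and 122 CPM in the jejunum, 2.39-fold lower (edgeR FDR = 0.00418). Its transcript is short, and with the length trend removed the log2 fold change was -0.11 and was not called. It was also lower in single cells, at 335 CPM (95% Poisson interval 328 to 343) in the duodenum and 196 CPM (190 to 202) in the jejunum. Ltb, lymphotoxin β, fell by 0.74 ± 0.17 and Ccl5, a chemokine of cytotoxic cells, by 0.67 ± 0.20; with the trend removed neither was called, and Ccl5 stood at 0.47.

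Receptors that place and tune T cells were described in 3 lists. Of 24 homing and retention genes 11 rose, of 23 cytokine receptors 10 and of 14 inhibitory receptors 7. None fell in any of the 3 lists, while of all genes 10.5% rose and 12.7% fell. With the length trend removed 10, 6 and 7 were called higher. Il12rb2, a receptor chain for interleukin 12, measured 6.50, 15.3, 26.6 and 8.09 CPM in the duodenum and 48.3, 36.4, 46.2 and 51.5 CPM in the jejunum, 3.20-fold higher without overlap. Il6st (1.15 ± 0.18), the shared receptor of the interleukin 6 family, Tgfbr2 (0.89 ± 0.16), a receptor of TGFβ, and Tnfrsf1b (0.88 ± 0.17), a receptor of TNF, rose too. Ccr9, the receptor that brings T cells to the small intestine, measured 215, 279, 376 and 252 CPM in the duodenum and 514, 469, 513 and 449 CPM in the jejunum. The integrin gene Itga1 rose by 0.86 ± 0.16, and S1pr1 (1.31 ± 0.32) and Ccr7 (1.44 ± 0.34), receptors of circulating T cells, rose from at most 3.01 CPM in the duodenum. Markers of other immune cells were measured beside these receptors. All 5 tested αβ T cell markers had a positive log2 fold change (median 0.40, 1 called). Their sum was 49.9 to 109 CPM in the duodenum and 66.9 to 151 CPM in the jejunum. Cd5, Cd6 and Cd28 of this list are also in the T cell receptor signalling list, and Cd6 is the gene called. The summed myeloid markers were 81.2 to 135.8 CPM and 135.9 to 213 CPM, with 1 of 4 tested called higher and Csf1r and C1qa below 1 CPM in each library. Their part in these results was not tested.

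The inhibitory receptors that rose included Cd96 (0.78 ± 0.17), Nt5e, which encodes the adenosine-producing enzyme CD73 (1.05 ± 0.18), Pdcd1, which encodes PD-1 (1.07 ± 0.21), Btla (2.13 ± 0.53) and Ctla4 (1.09 ± 0.37). Pdcd1 was at 5.52, 7.11, 10.2 and 9.99 CPM in the duodenum and 18.1, 17.4, 16.2 and 17.4 CPM in the jejunum. Ctla4 was no longer called when any of 4 single libraries was left out, with log2 fold changes from 0.82 to 1.28, and Btla stood at 3.02 without duodenal library 3. In single cells the medians of the 3 lists were 0.02, -0.02 and 0.03, and Il12rb2 was at 43.5 CPM (95% Poisson interval 40.8 to 46.3) in the duodenum and 38.4 CPM (35.7 to 41.3) in the jejunum.

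Transcription factors of lymphocyte lineages were called at a share near that of all genes (10.5% higher, 12.7% lower): 4 of 31 rose and 5 fell, with a median of -0.01. With the length trend removed 2 were called higher and 4 lower. Tcf7, a factor of naive and memory-like T cells, measured 38.9, 47.6, 75.7 and 48.6 CPM in the duodenum and 139, 130, 118 and 137 CPM in the jejunum, 2.48-fold higher (edgeR FDR = 0.00418). Ikzf3 rose by 0.87 ± 0.18. Maf (-1.77 ± 0.43), Zbtb7b, the factor of CD4 lineage choice (-1.28 ± 0.24), Batf3 (-1.44 ± 0.38) and Hopx (-0.67 ± 0.10) fell. Batf3 (-0.58) and Hopx (-0.21) were not called with the length trend removed. Kit, the stem cell factor receptor, measured 54.2, 70.0, 80.3 and 69.8 CPM in the duodenum and 175, 144, 165 and 208 CPM in the jejunum. In single cells Tcf7 and Kit differed little, with log2 ratios of 0.12 (95% interval 0.01 to 0.24) and -0.12 (-0.23 to -0.01). Of 6 genes of the aryl hydrocarbon receptor, a sensor of dietary ligands that IELs need, 3 rose: its repressor Ahrr (1.08 ± 0.18), its partner Arnt (1.09 ± 0.23) and its target Tiparp (0.83 ± 0.16).

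**Figure D4:**
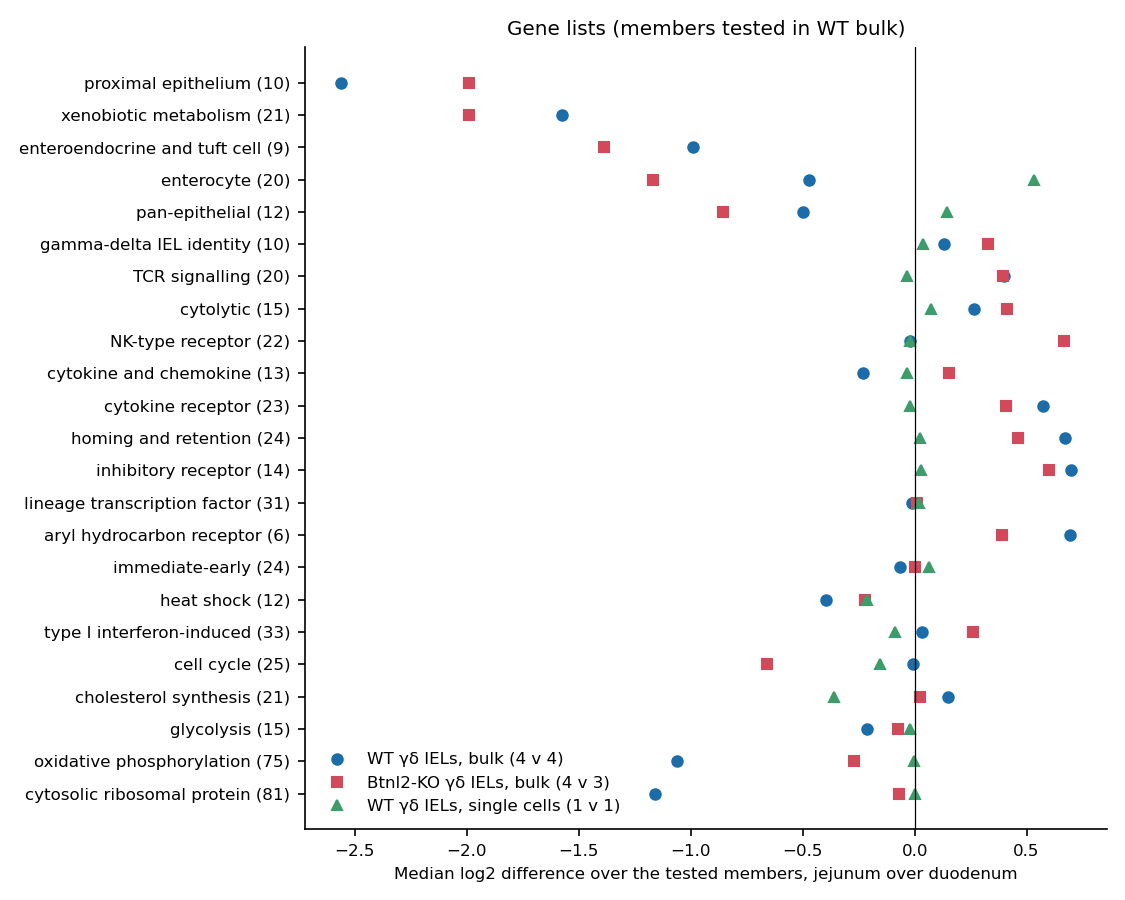
Median log2 difference, jejunum over duodenum (horizontal axis), of 23 gene lists in WT bulk, Btnl2-KO bulk and single cells (the last only for lists with at least 10 members measured), with the number of members tested in WT bulk in brackets. In WT bulk the medians run from -2.56 for proximal epithelium to 0.70 for inhibitory receptors, and in single cells ribosomal protein genes and oxidative phosphorylation stand near 0.

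Genes of protein synthesis and respiration, most of which have short transcripts, were lower almost throughout. Of 81 cytosolic ribosomal protein genes, 79 fell and none rose, with a median of -1.16. Their summed level was 60462, 41466, 31013 and 54993 CPM in the duodenum and 21297, 21966, 20846 and 22264 CPM in the jejunum, so that no jejunal library reached the lowest duodenal one. Of 75 genes of oxidative phosphorylation, 63 fell and none rose (median -1.06). With the length trend removed, 24 and 13 members were called lower, with medians of -0.38 and -0.21. In single cells the medians were -0.00 for both lists. Rpl41 fell by 1.38 ± 0.23 in bulk, and in single cells was at 5446 CPM (95% Poisson interval 5415 to 5477) in the duodenum and 5524 CPM (5491 to 5558) in the jejunum. Of 15 glycolysis genes 4 rose, among them the glucose transporter gene Slc2a3 (1.07 ± 0.16), and 1 fell; with the length trend removed 2 were called higher and none lower.

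Of 12 heat shock genes, chaperones that fold proteins, 5 fell and none rose, and with the length trend removed 5 were called lower. Hsp90aa1, an inducible HSP90, measured 954, 810, 547 and 860 CPM in the duodenum and 381, 414, 378 and 404 CPM in the jejunum (log2 fold change -1.01 ± 0.16). The chaperonin gene Hspe1 fell by 1.52 ± 0.26. Hspa1a, an inducible HSP70, measured 105, 136, 94.96 and 52.6 CPM in the duodenum and 45.1, 48.4, 40.5 and 26.7 CPM in the jejunum, and Hspa1b, its near-identical copy, fell by 1.11 ± 0.29. Both were lower in single cells as well: Hspa1a was at 75.5 CPM (95% Poisson interval 71.9 to 79.2) in the duodenum and 17.0 CPM (15.2 to 18.9) in the jejunum. Of 24 immediate-early genes 3 rose and 3 fell, beside 10.5% and 12.7% of all genes. Those that fell were Nr4a3, an orphan nuclear receptor (-1.35 ± 0.28), Fosb (-1.25) and Fosl2 (-0.94). Those that rose were Nr4a1, of the same receptor family as Nr4a3 (0.73), Dusp1 (0.74) and Zfp36 (0.59). Of 33 interferon-induced genes 3 rose and 4 fell, again near the shares over all genes. Isg15, a ubiquitin-like interferon target, fell by 0.68 ± 0.18 and Ifi27l2a by 1.20 ± 0.31; with the length trend removed they stood at 0.20 and 0.05, neither called, and the other 5 calls were lost as well.

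Of 25 cell cycle genes, 1 rose and 3 fell, beside 10.5% and 12.7% of all genes. Mcm4, of the replicative helicase, rose by 0.86 ± 0.16. Mki67, a marker of dividing cells, measured 49.3, 40.6, 33.5 and 58.6 CPM in the duodenum and 23.8, 35.6, 22.01 and 29.4 CPM in the jejunum; the groups overlap, and the call was lost when any of 4 single libraries was left out. Of 21 cholesterol synthesis genes 1 rose and 4 fell, beside the same shares of all genes. The list median was 0.15 in bulk and -0.36 in single cells. With the length trend removed none was called higher and 1 lower.

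The same contrast in Btnl2-KO γδ IELs called no gene by edgeR (0% of 12711 tested, 1323 with an unadjusted p under 0.05), 60 higher and 33 lower by DESeq2, and none by limma-voom (2728 with an unadjusted p under 0.05). Btnl2, the deleted gene, was at 3.804 to 10.1 CPM in the WT libraries, without a call between segments (-0.04 ± 0.35), and at 0 to 0.0437 CPM in the 7 Btnl2-KO libraries. Of the genes higher in WT jejunum 1272 of 1323 compared (96.1%) had a positive log2 fold change in the Btnl2-KO libraries, beside 52.3% of all genes, and of those lower 1294 of 1594 (81.2%) had a negative one. The medians were smaller, 0.39 beside 0.76 and -0.31 beside -0.98. The WT medians cover genes selected for their change in the same WT libraries, so smaller Btnl2-KO medians cannot be read as an effect of genotype. The Btnl2-KO jejunal libraries were uneven: their slopes on transcript length were -0.08, 0.20, -0.17 and 0.11. These are centred on the 7 Btnl2-KO libraries and are not on the same base as the WT slopes. The test of the difference itself, the segment by genotype interaction over 15 libraries, called no gene (13180 tested, 1017 with an unadjusted p under 0.05, lowest edgeR FDR = 0.619; DESeq2 called 1).

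For some genes the values in the 2 genotypes lay near each other. Tcf7 rose by 1.31 ± 0.18 in WT and had a log2 fold change of 1.30 ± 0.29 in Btnl2-KO libraries, and Ccr9 0.79 ± 0.17 and 0.86 ± 0.15. Pdcd1 was further from 0 in the Btnl2-KO libraries, at 1.72 ± 0.22 beside 1.07 ± 0.21 in WT, without a call on the difference. Others were nearer 0 in the Btnl2-KO libraries, without a call on the difference. Hcst was at -1.02 ± 0.19 in WT and 0.25 ± 0.34 in Btnl2-KO libraries (interaction, edgeR FDR = 0.619), Xcl1 at -1.26 ± 0.20 and -0.05 ± 0.37, and Rpl41 at -1.38 ± 0.23 and 0.01 ± 0.43.

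The single-cell libraries held 3957 duodenal and 3601 jejunal cells after filtering, with medians of 5101 and 4954 UMIs. They shared 21 barcodes. Cd3e was found in 3947 and 3593 of these cells. With 1 library per segment there is no test, and the Poisson intervals cover counting error only. Of 2420 genes called in bulk with at least 100 UMIs, 98.1% had a log2 ratio within 0.5 in either direction in single cells; of all 9422 genes with as many UMIs, 2.21% lay beyond it. Of the 47 others, 30 had the direction of the bulk call and 17 the opposite. Without the filter on cells these counts were 65 and 11. The median log2 ratio was -0.03 for the 1194 genes higher in bulk, -0.03 for the 1226 lower and -0.04 for all 9422.

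Among the 30, the following were picked after their values were seen. Socs3, a feedback inhibitor of cytokine signalling, measured 5.59, 6.07, 9.48 and 8.34 CPM in the duodenum and 18.9, 17.6, 20.6 and 18.8 CPM in the jejunum in bulk. In single cells it was at 10.1 CPM (95% Poisson interval 8.79 to 11.5) in the duodenum and 18.5 CPM (16.7 to 20.6) in the jejunum. Pim2, a cytokine-induced survival kinase, was at 131 CPM (126 to 136) and 232 CPM (225 to 239) in single cells, and rose by 1.20 ± 0.24 in bulk. Slamf6, a receptor of the SLAM family, rose by 1.23 ± 0.20 in bulk and had a single-cell log2 ratio of 0.53 (95% interval 0.14 to 0.92). Ctla4 had a single-cell log2 ratio of 0.91 (0.65 to 1.17). Xcl1, Hspa1a and Hspa1b were lower in the jejunum in both kinds of library.

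Some epithelial genes in the single-cell libraries came from few cells, and others were spread widely. Apoa4 had 24 UMIs in duodenal and 452 in jejunal cells, opposite to bulk, and 198 of the 452 lay in 1 cell. Lyz1 had 894 and 4375 UMIs, with 839 and 4215 of them in 1 cell each. Fabp1 had 202 and 75 UMIs, spread over 144 and 35 cells, with 34 of the 75 in 1 jejunal cell. Epcam UMIs were found in 1586 (40.1%) and 1282 (35.6%) of the cells; no cell type lacking the gene was set apart here, so no background share is given. Adh1, found in 324 and 263 cells with at most 11 UMIs in any, differed by a log2 ratio of -0.17 (95% interval -0.38 to 0.04).

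**Figure D5:**
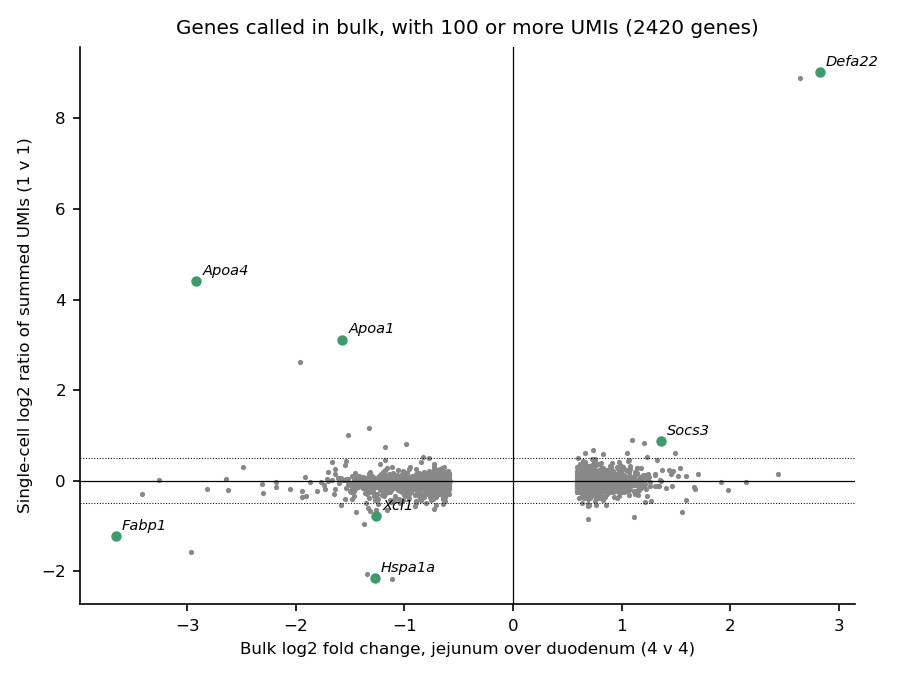
Bulk log2 fold change (horizontal axis, 4 against 4 libraries) and single-cell log2 ratio of summed UMIs (vertical axis, 1 against 1 library) of the 2420 genes called in bulk with at least 100 UMIs, jejunum over duodenum; dotted lines mark 0.5 in either direction. Most genes lie between the lines on both sides, and 47 lie outside them.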

How the data were processed

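Bulk RNA-seq of sorted γδ IELs and of the IEC fraction, and droplet single-cell RNA-seq of γδ IELs, were analysed. The deposited bulk values are expected counts per gene, which the authors estimated with RSEM in ArrayStudio on a customized mouse genome (GRCm38 per the labels). The deposited single-cell values are UMI counts from Cell Ranger. The study's methods and the labels name different library kits, so the kit is open. In the table of γδ IELs, 1 column matched no sample and was left out. Of 24475 gene IDs, 24375 matched a RefSeq symbol.

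Expected counts were rounded, and genes were kept where the number of libraries with 10 or more counts reached the size of the smaller group. They were fitted with edgeR 4.0.16 (quasi-likelihood test, TMM). A gene was called at an FDR (Benjamini-Hochberg) under 0.05 together with a change of over 1.5-fold. Errors of log2 fold changes are standard errors. The study names DESeq2, used here as an alternative (1.42.0) beside limma-voom (limma 3.58.1), other filters and scalings, a pan-epithelial covariate and leaving out each library. Removing the transcript length trend (loess, span 0.5) was added after seeing the data. Named genes were list members, Btnl2 and, among called genes whose segments do not overlap, the top 15 higher and the top 15 lower by fold change. The groups and the 40 gene lists were chosen with earlier results of these data known. On simulated data for the WT γδ IEL contrast (12629 genes), 58% of 2-fold and 84% of 3-fold changes were recovered, with 12 false calls. Both recovery and the number of false calls may differ in data with a length trend such as the one seen here. Cells were summed per library after removing those under 500 genes or over 10% mitochondrial UMIs, and doublets were not called. Replicates are pools of mice, and counting intervals cover counting error only. Results for a few named genes are not reported here.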

Additional observations from a re-analysis of the deposited data

Results flagged for a closer look

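In 294 groups of 4 WT libraries examined, 8 held a library set apart from the other 3 by more than 0.829 of the group's range (Dixon's criterion, which chance meets in about 1 of 20 groups). S100g was at 287 CPM in duodenal library 1 and at 13.1 to 33.6 CPM in the others. Cbr3 was at 5.80 CPM in the same library and at 0.543 to 1.26 CPM in the others. Pcdhgc4 was at 0.346 CPM in duodenal library 3 and at 0 in the others, and Btla at 0.642 CPM in that library and at 0.140 to 0.165 CPM in the others. Plcg1 was at 84.3 CPM in jejunal library 2 and at 119 to 122 CPM in the others. The summed α-defensins reached 20141 CPM in duodenal library 2, beside 5482 to 6428 CPM. The summed stromal, muscle and red cell markers reached 316 CPM in jejunal library 3, beside 51.2 to 63.6 CPM, and the summed heat shock genes 7293 CPM in duodenal library 4, beside 6472 to 6605 CPM.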

How the results depend on the processing

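In WT γδ IELs, 659 genes were higher and 1038 lower with the length trend removed, 2198 were higher without a minimum on the fold change, and 1061 were lower with all 22 γδ IEL libraries in one fit. Leaving out single libraries gave 900 (without duodenal library 1) to 1928 (without duodenal library 3) higher and 1115 to 1967 lower. In Btnl2-KO γδ IELs, DESeq2 called 60 higher and 33 lower and the pan-epithelial covariate gave 2 and 4; leaving out single libraries gave 0 to 1 higher (1 without jejunal library 2 or 3) and 0 lower. In IECs, DESeq2 called 182 higher and 147 lower, limma-voom 88 and 64, and the length-removed fit 42 and 40; leaving out single libraries gave 0 (without duodenal library 1 or jejunal library 3) to 37 higher and 0 (without jejunal library 3) to 36 lower. DESeq2 called 1 gene lower in the interaction. Without the filter on cells, 65 genes had the bulk direction in single cells and 11 the opposite. With the length trend removed, Fcer1g (0.35), Hcst (0.25), Tyrobp (0.029), Ccl5 (0.47), Isg15 (0.20) and Ifi27l2a (0.051) changed sign. The cause was not tested. No paired analysis was possible because the labels give no replicate numbers that tie a duodenal to a jejunal library.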
